A study of Mus musculus with 12 samples.

Results

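Liver RNA of mice lacking PPARβ/δ was compared with that of wild-type mice while both were kept on an ethanol liquid diet. The members were the arrays titled Pparβ/δ-/-_Ethanol 1 to 3 and Wild-type_Ethanol 1 to 3, which are 6 of the 12 arrays of the series, on Affymetrix Mouse Gene 2.0 ST. All groups were male mice of C57BL/6 background, 8 to 10 weeks old at the start, which took control liquid diet during an acclimation week. The ethanol groups (here wild-type ethanol and null ethanol) were then given 4% (v/v) ethanol in liquid diet for 16 weeks, and the remaining 6 arrays (wild-type control and null control, 3 each) came from the same genotypes on liquid diet without ethanol for the same time. The feeding study had 10 mice per group, and the labels do not say that the 3 arrays of a group were 3 separate mice, so the p-values describe only how far these samples vary, which may be technical. The labels name no tissue-specific deletion and do not say whether the wild-type mice were littermates. An effect of the lost receptor and an effect of strain DNA carried with the null allele cannot be told apart. Among the 50 tested genes nearest to Ppard, 25 on each side, 0 were called on ethanol, and among the nearest 200 there were 2 (1%). The share was 1.79% over all tested genes and 2.81% over chromosome 17, which carries Ppard. Windows this small hold few calls at such shares, so no conclusion is drawn from these counts.

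PPARβ/δ, encoded by Ppard, is a nuclear receptor that responds to fatty acids and binds DNA together with RXR at a direct repeat of a hexamer, the PPAR response element. In liver it acts beside PPARα on the use of fatty acids and glucose, and in Kupffer cells, the resident macrophages of the liver sinusoids, it is known for its part in macrophage activation. Long ethanol feeding is known for fat storage, altered amino-acid handling and inflammation in the liver.

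Promoters are shown because the receptor acts through DNA, and the printed ones are those of called genes that held a match. RefSeq promoters (GRCm38.p6, the 250 bases before each start) were matched by symbol, and 200 of the 251 genes called on the ethanol diet had one. The core AGGTCANAGGTCA, searched on both strands, was in 11 of 32851 promoters (0.0335%), and of the called genes only Igsf23, an immunoglobulin superfamily gene, held it, at bases -72 to -60 before the start, on the strand opposite to the gene. The gene-strand line below therefore shows its reverse complement. The letters TTGCATCA, a C/EBP-ATF element bound by stress factors such as ATF4, were in 260 of the 32851 promoters (0.791%). They were in 3 of the 200 called genes with a promoter (1.5%), namely Fgf21, Got1 and Pik3c2g. The first share counts promoters of all RefSeq genes, and the second counts genes, some of which have more than 1 promoter. The 2 shares are therefore not like for like. This element was chosen after the values were seen. A match is a description of letters in this window. Capitals mark the match, and each line runs 5′ to 3′ on the gene's strand.

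Igsf23, chr7:19950744-19950993, minus strand: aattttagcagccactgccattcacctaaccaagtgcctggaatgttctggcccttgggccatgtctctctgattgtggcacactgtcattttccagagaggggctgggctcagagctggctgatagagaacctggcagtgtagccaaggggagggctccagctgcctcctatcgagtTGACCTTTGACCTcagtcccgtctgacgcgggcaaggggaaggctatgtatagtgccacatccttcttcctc

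Fgf21, chr7:45615491-45615740, minus strand: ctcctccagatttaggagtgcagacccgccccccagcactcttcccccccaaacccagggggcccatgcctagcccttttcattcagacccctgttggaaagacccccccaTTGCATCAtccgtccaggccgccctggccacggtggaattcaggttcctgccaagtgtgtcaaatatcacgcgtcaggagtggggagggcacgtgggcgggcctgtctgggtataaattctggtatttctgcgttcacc

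Got1, chr19:43524606-43524855, minus strand: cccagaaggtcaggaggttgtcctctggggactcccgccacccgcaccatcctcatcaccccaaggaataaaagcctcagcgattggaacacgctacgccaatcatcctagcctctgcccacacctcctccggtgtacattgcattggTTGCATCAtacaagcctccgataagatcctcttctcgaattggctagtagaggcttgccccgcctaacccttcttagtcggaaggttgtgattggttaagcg

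Pik3c2g, chr6:139613822-139614071, plus strand: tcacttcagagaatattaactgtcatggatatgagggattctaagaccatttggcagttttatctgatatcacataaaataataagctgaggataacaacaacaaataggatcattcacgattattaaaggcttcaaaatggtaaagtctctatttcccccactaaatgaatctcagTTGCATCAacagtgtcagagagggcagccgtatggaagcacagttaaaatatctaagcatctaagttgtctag

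Igsf23 (log2 difference 1.96), Pik3c2g (1.95) and Fgf21 (1.13) rose in null liver on ethanol, and Got1 (-1.30) fell, so the shared element was in genes of both directions.

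Array medians lay between 5.55 and 5.62 on the log2 scale. Over the 14031 tested genes, null ethanol array 3 correlated less with null ethanol arrays 1 and 2 (Pearson r = 0.9865 and 0.9867) than those did with each other (r = 0.9934), and the 3 wild-type ethanol arrays correlated at 0.9911 to 0.9932. The first principal component, 32.3% of the variance over the 12 arrays, separated the genotypes. Of 16 hepatocyte markers, 16 were tested and 0 were called (limma, 3 at an unadjusted p under 0.05). Albumin (Alb) was at 14.05, 13.96 and 14.04 in wild-type and 14.03, 14.01 and 13.92 in null liver, so the groups overlapped. Ppard itself was not lower in null liver: it was at 7.96, 7.77 and 7.85 in wild-type ethanol and 7.88, 7.93 and 8.06 in null ethanol arrays (log2 difference 0.10, SE 0.11, adjusted p = 0.725). The labels do not say which exons the null allele lacks, so this value checks no label.

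On the ethanol diet, 251 of 14031 tested genes differed between the genotypes (1.79%, limma, Benjamini-Hochberg adjusted p under 0.05). Of these, 64 were higher in null liver (0.456%) and 187 were lower (1.33%). The 3 null arrays and the 3 wild-type arrays did not overlap for any of the 251, against 24.1% of all tested genes without overlap. The calls were chosen with these same arrays, so their lack of overlap follows largely from the choice and adds no evidence. The split between directions moved with the scaling: 64 higher and 187 lower became 85 and 144 after quantile normalization and 107 and 122 after median centring, which shifted the median difference of all genes from -0.02 to 0.05. Most of the lower calls were modest in size, since 137 of the 187 were smaller than 2-fold, as were 43 of the 64 higher calls. The number of calls also depended on single arrays, falling to 111 without wild-type ethanol array 2, 108 without array 3, 132 without null ethanol array 1 and 155 without array 2. It was 241 without null ethanol array 3, the array that correlated less with its group. A call was kept in all 12 fits that left out an array for 95 genes, 26 higher and 69 lower.

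**Figure D1:**
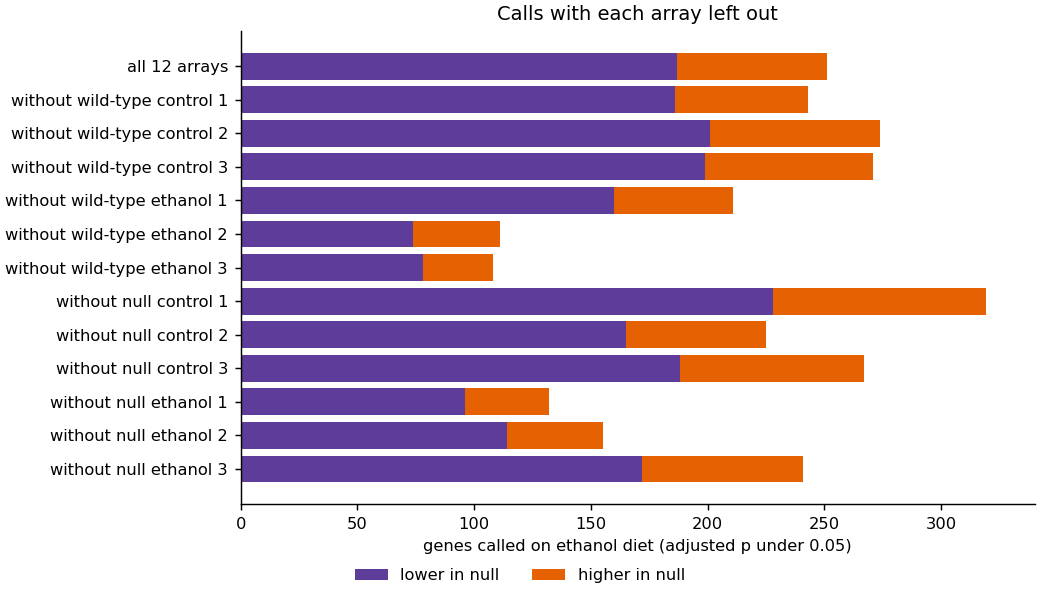
Number of genes called on the ethanol diet (bar length, adjusted p under 0.05) with all 12 arrays and with each array left out; purple is the part lower and orange the part higher in null liver. The bar shrinks from 251 to 108 to 155 without wild-type ethanol arrays 2 or 3 or null ethanol arrays 1 or 2.

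The same genotypes on the control diet, measured on 6 other arrays, differed in 715 genes (5.10%), 450 higher (3.21%) and 265 lower (1.89%) in null liver. Of the 251 genes called on ethanol, 126 (50.2%) were also called in the same direction on the control diet, which is 17.6% of the 715, and 0 were called in the opposite one. The share was 45 of the 64 higher genes (70.3%) and 81 of the 187 lower genes (43.3%). Signs on the control diet matched for 234 of the 251 (93.2%), against 53.4% of all tested genes. The median size of the 251 differences, with sign dropped, was 0.77 on ethanol and 0.50 on the control diet, though genes chosen for passing on ethanol tend to be larger there. Across all tested genes, which are not independent replicates, the differences on the diets correlated with r = 0.50. The test of the change in the genotype difference between diets called 2 genes (0.0143%, limma, 2110 at an unadjusted p under 0.05), both small nucleolar RNAs.

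**Figure D2:**
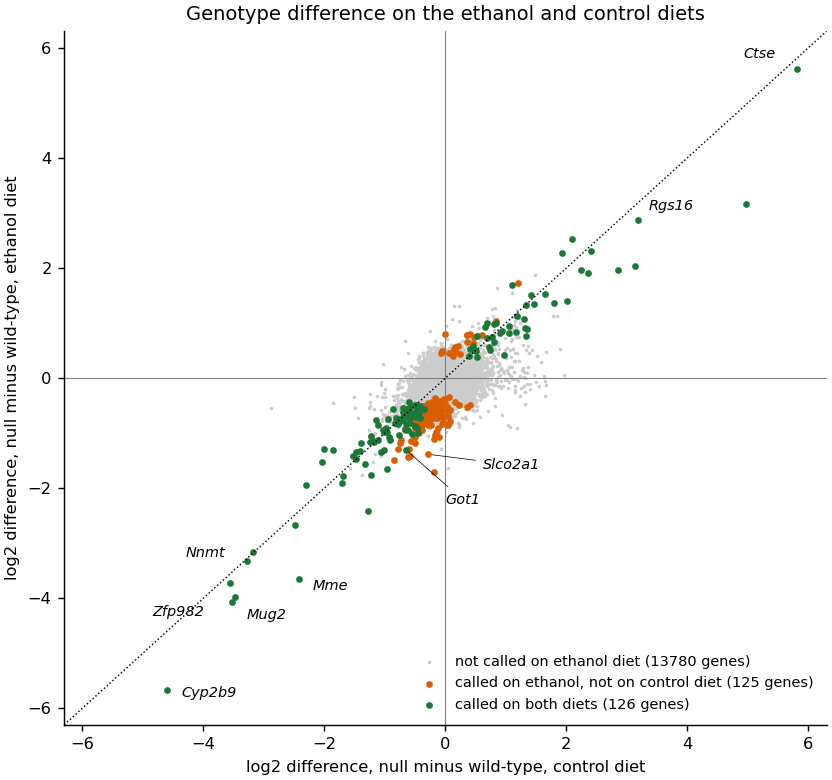
Each point is a tested gene, with the log2 genotype difference (null minus wild-type) on the control diet on the x axis and on the ethanol diet on the y axis; the dotted line marks equal differences. Green points (126 genes) were called on both diets, orange points (125 genes) on ethanol and not on control, and grey points were not called on ethanol.

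With predicted genes and small RNAs left out, Ctse and Rgs16 had the largest rises among the named genes. Both separated the genotypes by far more than the spread of the arrays. Other large differences were less clear of that spread, such as those of Igsf23, Tcf24 and Adgrf1, given below. Values are log2 intensities in the order of arrays 1, 2 and 3. Ctse (cathepsin E, an aspartic protease) was at 6.32, 5.92 and 5.90 in wild-type and 11.93, 11.70 and 11.37 in null liver. That is 49.3-fold higher in the null arrays (log2 difference 5.62, SE 0.16, adjusted p = 3.84e-10). The other 11 cathepsins tested did not pass. Rgs16, which switches off G protein signals and is an output of the clock and of feeding, was at 8.92, 9.18 and 9.42 against 11.95, 12.38 and 11.79. It was 7.28-fold higher in null liver (adjusted p = 0.000563) and the 7 other RGS genes tested did not pass.

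Behind these came Asic5, the bile acid-sensitive ion channel, at 6.82, 6.51 and 6.76 in wild-type and 9.52, 9.56 and 8.57 in null liver (log2 difference 2.52). Prelid2, of a family that moves lipids between mitochondrial membranes, was at 5.59, 5.34 and 5.15 against 7.38, 7.87 and 7.73 (2.30), and its wild-type values lay under the filter's lowest percentile of 5.61, which may limit the difference. Pik3c2g, a class II phosphoinositide kinase of liver, was at 6.52, 6.64 and 6.50 against 8.59, 8.70 and 8.22 (1.95). In all 3 genes the lowest null array lay above the highest wild-type array by more than the range within either group. Atp10d, of the phospholipid flippase family, rose by a log2 difference of 1.91, and the meiosis gene Meiob by 1.52. Rabggtb, a subunit of the enzyme that attaches lipid to Rab proteins, rose by 1.5, the transporter gene Slc6a16 by 1.40 and the sulfatase gene Arsk by 1.35. Each of these 8 genes from Asic5 to Arsk was also called higher on the control diet, with differences from 1.41 to 2.40, and kept its call on ethanol under 19 alternatives. These were the 12 fits without 1 array and 7 other settings: no filter, a stricter filter, only the ethanol arrays, quantile normalization, median centring, a trend and robust fit and the mean of probe sets.

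In wild-type liver, Igsf23 was at 6.02, 8.04 and 6.46, with array 2 far above the others, and in null liver at 8.67, 8.78 and 8.95. Its call (adjusted p = 0.0222) was lost without wild-type ethanol array 1 or 3 or any 1 null ethanol array, with only the ethanol arrays and with a trend and robust fit (adjusted p 0.000219 to 0.114 over 19 alternatives). Tcf24, a basic helix-loop-helix factor gene, was at 6.70, 6.24 and 6.08 against 9.35, 7.73 and 8.75, and lost its call (adjusted p = 0.0234) without wild-type ethanol array 2 or 3 or null ethanol array 1 or 3 and with a trend and robust fit (0.00308 to 0.111). Fam131c rose by 1.36 and lost its call without null ethanol array 1 (adjusted p = 0.0554). Aacs, which activates acetoacetate in the cytosol for lipid synthesis, was at 7.38, 7.59 and 7.61 against 9.36, 9.16 and 9.16, a 3.24-fold rise with no overlap (adjusted p = 0.00883), and it kept its call under the 19 alternatives.

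Among the falls, Cyp2b9, a cytochrome P450 that is higher in female liver, led with 9.56, 10.57 and 9.35 in wild-type and 3.76, 4.38 and 4.33 in null liver (50.9-fold lower, log2 difference -5.67, adjusted p = 1.34e-07). Zfp982, a zinc finger gene, was at 7.47, 6.92 and 7.64 against 3.52, 3.10 and 3.22, or 16.7-fold lower. Mug2, a murinoglobulin that traps proteases in plasma, stayed bright and fell 15.8-fold, from 12.04, 12.01 and 12.25 to 8.09, 7.80 and 8.47. Mme, the membrane peptidase neprilysin, fell 12.6-fold, from 10.74, 10.13 and 10.45 to 6.69, 6.79 and 6.86. Nnmt, which methylates nicotinamide with S-adenosylmethionine, fell 10.0-fold, from 8.27, 8.19 and 8.78 to 5.58, 4.98 and 4.69. The null values of Cyp2b9, Zfp982 and Nnmt lay under the filter percentile of 5.61 to 5.71, where intensity is mostly background, so their folds may be limited by that floor. All 5 were called lower on the control diet too and kept their calls on ethanol under 19 alternatives. Zfp982 and Mug2 belong to families of near-identical genes, so a share of their signal may come from relatives.

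The next falls joined metabolic, regulatory and myeloid genes. Lncbate1, a long noncoding RNA of brown fat, fell by 1.95, Mid1, a microtubule-bound ubiquitin ligase, by 1.91 and Slc15a5, of the peptide transporter family, by 1.79. Aoah, whose enzyme deacylates bacterial lipopolysaccharide, was at 7.12, 6.71 and 6.96 against 5.10, 5.28 and 5.13 (-1.76, adjusted p = 0.00023). Cd300e, a receptor of monocytes, was at 7.28, 7.32 and 7.39 against 5.53, 5.87 and 6.18 (-1.47, adjusted p = 0.000287), and the groups of both genes lay more than a log2 unit apart. The null values of Lncbate1, Slc15a5 and Aoah lay under the filter percentile too, which may limit their differences. Pttg1, the securin that holds back the separation of sister chromatids, fell by 1.52. The adhesion receptor gene Adgrf1 was at 6.74, 7.61 and 7.59 against 4.94, 5.32 and 6.55, with null array 3 close to the lowest wild-type array. Its call (adjusted p = 0.0195) was lost without wild-type ethanol array 2 or 3 or null ethanol array 1 or 2, with only the ethanol arrays and with a trend and robust fit (0.000504 to 0.0979). Ctcflos, an antisense RNA gene, fell by 1.44 (adjusted p = 0.0303) and lost its call without wild-type ethanol array 2 or 3 or null ethanol array 2 or 3, with no filter, with only the ethanol arrays and with a trend and robust fit (0.026 to 0.136).

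**Figure D3:**
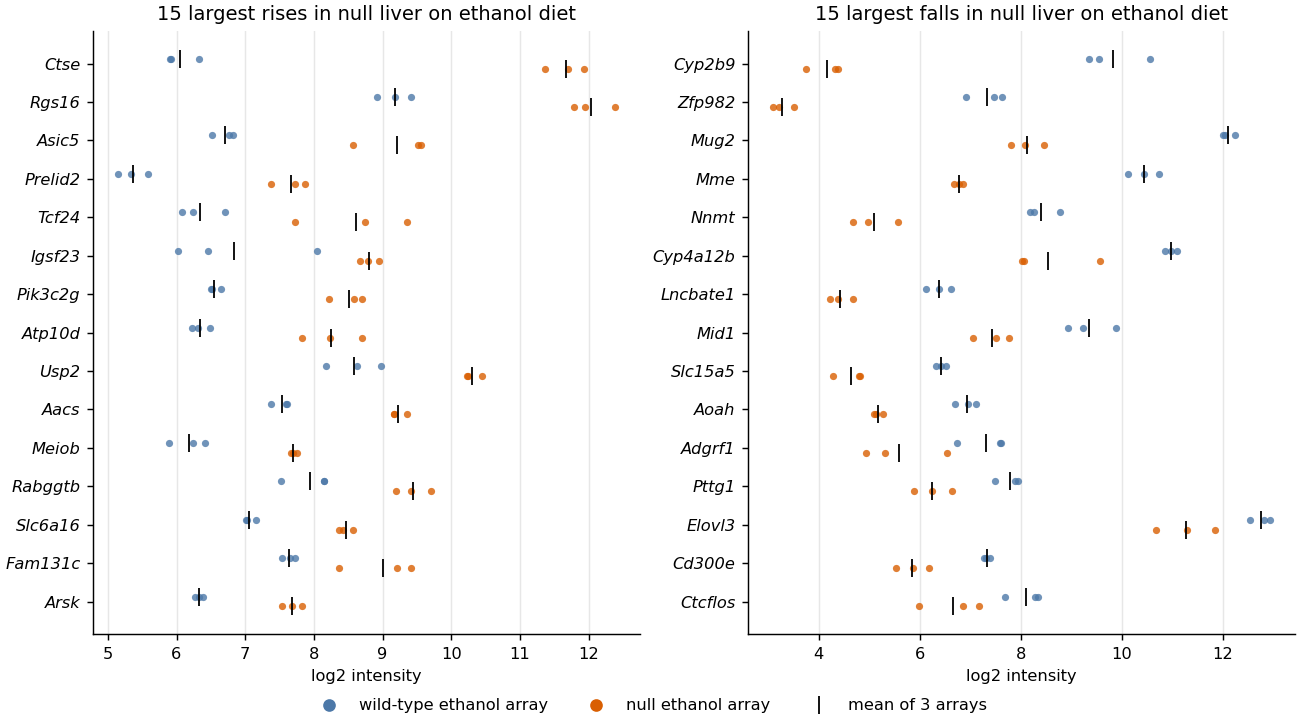
Log2 intensity (x axis) of the 15 largest rises (left) and 15 largest falls (right) on every wild-type ethanol (blue) and null ethanol (orange) array, with a black bar at the mean of 3 arrays. The genes were chosen among calls whose groups do not overlap, so the lack of overlap here is no result. Predicted genes and small RNAs were left out. Ctse goes from 5.90 to 6.32 in wild-type to 11.37 to 11.93 in null liver, and Igsf23 has a wild-type array at 8.04.

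Shares called in the gene lists stand beside 1.79% of all tested genes, and in a list of about 20 genes 1 call already makes 5%. Several enzymes that break down or rebuild amino acids were lower in null liver on ethanol. A list of 26 tested genes held mostly enzymes that use or make pyridoxal phosphate, the active form of vitamin B6. Of these 26, 5 fell (19.2%, against 1.33% of all genes) and 0 rose. Got1, the cytosolic aspartate aminotransferase, was at 12.08, 12.14 and 12.17 in wild-type and 10.97, 10.47 and 11.04 in null liver, a 2.47-fold fall (adjusted p = 0.000537). Cth, cystathionine gamma-lyase, which makes cysteine, was at 12.52, 12.36 and 12.68 against 11.57, 11.55 and 11.70, a 1.89-fold fall (adjusted p = 0.00338). Agxt, the peroxisomal aminotransferase that detoxifies glyoxylate, was at 11.50, 11.55 and 11.51 against 10.82, 10.83 and 10.38, a 1.8-fold fall (adjusted p = 0.0029). In these 3 genes every null array lay below every wild-type array by more than the range within the wild-type group, and they kept their calls under 19 alternatives. On the control diet Got1 was called lower too (-0.66, adjusted p = 0.0285), while Cth (-0.51, adjusted p = 0.0526) and Agxt (0.04) did not pass. The change between diets passed for none of the 3 (limma interaction, adjusted p = 0.23, 0.35 and 0.17 for Got1, Cth and Agxt).

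The other falling members were enzymes of the tryptophan and aromatic amino-acid routes. Kynu, kynureninase, was at 11.41, 11.50 and 11.56 against 10.95, 11.02 and 10.55 (-0.65), and its call (adjusted p = 0.0181) was lost without wild-type ethanol array 2 or 3 (0.00754 to 0.0935 over 19 alternatives). Ddc, the aromatic amino-acid decarboxylase, named after its values were seen, was at 8.38, 8.25 and 8.28 against 7.66, 7.86 and 7.32 (-0.69). Its call (adjusted p = 0.0296) was lost without any 1 of the 3 wild-type ethanol arrays, without null ethanol array 1 or 3, with no filter and after either rescaling (0.0209 to 0.103). Pdxk, the kinase that makes pyridoxal phosphate, was at 9.25, 9.34 and 9.13 against 9.40, 9.32 and 9.34 (0.11, adjusted p = 0.744), and its groups overlapped. Other members had small differences, such as the tyrosine aminotransferase gene Tat (-0.05) and the cystathionine beta-synthase gene Cbs (-0.36, adjusted p = 0.0995). The list's median was -0.08 against -0.02 over all genes and -0.01 after median centring, with 19 of 26 members below 0 and 14 of 26 after that centring. Without wild-type ethanol array 2 or 3, 3 members were called lower. Summed over the list, intensity was 75915 to 79018 in wild-type and 57911 to 66990 in null ethanol arrays.

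Among 18 periportal genes, those of hepatocytes near the portal vein, Hal and Cdh1 fell and 0 rose (11.1% called). Hal, histidase, which opens histidine breakdown, was at 12.26, 12.28 and 12.27 against 11.35, 11.33 and 11.14, 2.0-fold lower (adjusted p = 4.98e-05). On the control diet the Hal difference was -0.45 (adjusted p = 0.0153), and the change between diets did not pass (interaction -0.55, adjusted p = 0.17). Cdh1, E-cadherin, was at 8.51, 9.24 and 8.85 against 7.03, 7.21 and 8.08, and a second, dimmer probe set gave -0.42 where this gave -1.43. Its call (adjusted p = 0.0499) was lost without any 1 wild-type array of either diet, without null control array 2 or null ethanol array 1 or 2, with no filter, after either rescaling, with a trend and robust fit and with the mean of probe sets (0.00909 to 0.21). The list's median was -0.19, and the urea-cycle genes Cps1 (-0.21) and Ass1 (-0.32, adjusted p = 0.291) did not pass. Of 21 pericentral genes, 0 were called with all arrays (limma, 2 at an unadjusted p under 0.05), and 1 was called lower without null control array 2. The mitochondrial ornithine carrier Slc25a15 (-0.55, adjusted p = 0.0142), the leucine enzyme gene Mccc1 (-0.72, adjusted p = 0.0197) and the lysine enzyme gene Aass (-0.52, adjusted p = 0.0378) were also called lower, and are named after their values were seen. Slc25a15 lost its call without wild-type ethanol array 3 or null ethanol array 2 and after median centring (0.0042 to 0.0702), and Mccc1 without wild-type ethanol array 2 or 3 or null ethanol array 2 or 3 (0.00356 to 0.0939). Aass lost it without wild-type control array 1 or any 1 ethanol array, with no filter and after either rescaling (0.0174 to 0.159).

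**Figure D4:**
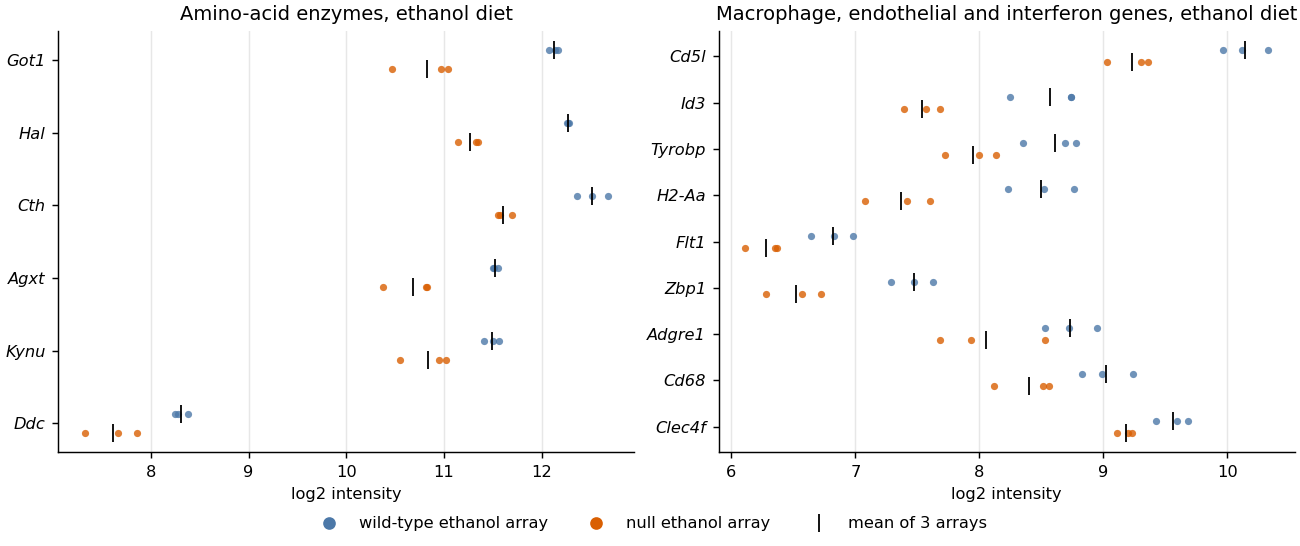
Log2 intensity (x axis) on every wild-type ethanol (blue) and null ethanol (orange) array, with a black bar at the mean of 3 arrays, for 6 amino-acid enzymes (left) and for genes of macrophages, endothelium and the interferon response (right). The groups of the 6 enzymes, all of them called, do not overlap. Adgre1, which was not called, has a null array at 8.53, level with the lowest wild-type array.

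Markers of Kupffer cells and other macrophages lay lower in null liver, though few passed alone. Of 13 tested Kupffer markers, 12 were below 0 with a median of -0.42 (-0.35 after median centring), against 54.5% of all genes below 0, and Cd5l and Id3 fell (15.4% called). Cd5l, a scavenger-type protein secreted by Kupffer cells, was at 9.96, 10.12 and 10.33 against 9.03, 9.30 and 9.36, a 1.88-fold fall (adjusted p = 0.0127). Id3, a regulator needed for Kupffer cell identity, was at 8.25, 8.74 and 8.74 against 7.39, 7.57 and 7.68 (-1.03, adjusted p = 0.0493). The defining marker Clec4f was at 9.42, 9.59 and 9.68 against 9.11, 9.20 and 9.23 (-0.38, adjusted p = 0.186), apart but not called. Cd5l lost its call without wild-type ethanol array 2 or 3 or null ethanol array 1 (0.00543 to 0.0736). Id3 lost it without any 1 wild-type control array, wild-type ethanol array 2 or 3, null control array 3 or any 1 null ethanol array, with no filter, after either rescaling and with a trend and robust fit (0.0052 to 0.191).

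Of 23 general macrophage and monocyte genes, 21 were below 0 with a median of -0.44 (-0.37 after median centring), and Tyrobp and H2-Aa fell (8.7% called). Tyrobp, the adaptor of activating myeloid receptors, was at 8.35, 8.69 and 8.78 against 7.72, 8.00 and 8.13 (-0.66, adjusted p = 0.0482). H2-Aa, a class II antigen-presenting chain, was at 8.23, 8.52 and 8.76 against 7.08, 7.42 and 7.60 (-1.13, adjusted p = 0.0373). Both lost their calls without wild-type ethanol array 2 or 3, null control array 2 or null ethanol array 1 or 2, with no filter and after either rescaling. Tyrobp lost it also without wild-type control array 1 or 2 or null control array 3 and with only the ethanol arrays (0.029 to 0.187), and H2-Aa with a trend and robust fit (0.00164 to 0.158). Without null ethanol array 3, 4 of the list were called lower, without wild-type control array 3, 3 were, and without wild-type control array 2 or null control array 3, 1 was. Adgre1, the F4/80 antigen, was at 8.53, 8.72 and 8.95 against 7.68, 7.93 and 8.53 and was not called (adjusted p = 0.124), and its lowest wild-type and highest null arrays were level. Summed intensity of the macrophage list was 8185 to 10590 in wild-type and 5406 to 7734 in null ethanol arrays. That of the Kupffer list was 8314 to 9739 and 6719 to 8529, so its groups overlapped. On the control diet the list medians were -0.60 and -0.50, with 9 and 3 members called lower. In whole liver, fewer cells of a type and less RNA per cell cannot be told apart.

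Other myeloid genes outside the lists were called lower as well, and are named after their values were seen. Ly86 and Cd180, whose proteins form a surface complex that regulates responses to lipopolysaccharide, fell by 1.17 and 1.19. Ly86 was at 8.18, 8.62 and 8.86 against 7.14, 7.28 and 7.74 (adjusted p = 0.015). Cd180 was dimmer, at 5.96, 6.37 and 6.57 against 4.87, 5.15 and 5.33 (adjusted p = 0.0441), with its null values under the filter percentile. Ly86 lost its call without wild-type ethanol array 2 or 3 or null ethanol array 1 or 2 (0.00602 to 0.0851). Cd180 lost it without wild-type control array 2, wild-type ethanol array 2 or 3, null control array 2 or any 1 null ethanol array, with no filter, after median centring and with a trend and robust fit (0.00648 to 0.173). Aoah and Cd300e kept theirs under 18 and 19 alternatives. Of lymphocyte and neutrophil markers, 9 and 3 were bright enough to test and 0 were called (limma, 0 at an unadjusted p under 0.05). The neutrophil genes S100a8, S100a9 and Ly6g were below the filter.

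Of 20 endothelial markers, 18 were below 0 with a median of -0.27, and Flt1, a VEGF receptor, fell (5% called, 1 gene). Over all tested genes, 54.5% were below 0, the median was -0.02 and 1.33% were called lower. Flt1 was at 6.64, 6.98 and 6.83 against 6.37, 6.35 and 6.11 (-0.54, adjusted p = 0.0296). Its call was lost without wild-type ethanol array 2 or 3 or any 1 null ethanol array, with no filter and with only the ethanol arrays (0.0239 to 0.144). This list turned on null ethanol array 3: without that array, 8 members were called lower and the median was -0.47. Its summed intensity was 11090 to 12965 in wild-type and 8418 to 14038 in null ethanol arrays. Of 22 stellate-cell and matrix genes, 0 were called (2 at an unadjusted p under 0.05) and the median was -0.07. Tgfb1, the profibrotic cytokine, was the called member of the 26 cytokine and NF-kB genes (3.85%), at 7.70, 7.97 and 7.96 against 7.08, 7.30 and 7.37 (-0.63, adjusted p = 0.0212). It lost its call without wild-type ethanol array 2 or 3 or null ethanol array 1 or 2 (0.0154 to 0.106).

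Of 25 interferon-stimulated genes, 23 were below 0 with a median of -0.28, and Zbp1, a sensor of Z-form nucleic acid, fell (4% called, 1 gene). Over all tested genes, 54.5% were below 0 and 1.33% were called lower. Zbp1 was at 7.29, 7.47 and 7.63 against 6.57, 6.72 and 6.28 (-0.94, adjusted p = 0.0373). The call was lost without any 1 of the 6 ethanol arrays, with no filter and after either rescaling (0.00518 to 0.153). Of 28 complement and coagulation genes, C2 fell (-0.52, adjusted p = 0.03, 3.57% called), and its call was lost without wild-type ethanol array 2 or 3 or any 1 null ethanol array, with no filter, with only the ethanol arrays and after either rescaling (0.0187 to 0.143). Without wild-type control array 2, 2 of that list were called lower. Of 24 acute phase genes, 0 were called (1 at an unadjusted p under 0.05), and Lbp, the lipopolysaccharide-binding protein gene, was at 11.72, 11.65 and 11.81 against 11.44, 11.71 and 11.12 with overlapping groups. Kupffer and macrophage marker levels lay lower in the same null arrays, and their part in the values of these immune genes was not tested.

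Of 25 chaperone and unfolded protein response genes of the endoplasmic reticulum (ER), 24 were below 0 on ethanol with a median of -0.23 (21 and -0.16 after median centring), and Sdf2l1 and Dnajb9 fell (8% called). Sdf2l1, a partner of the chaperone BiP, was at 10.08, 9.86 and 9.66 against 8.47, 8.64 and 8.62, a 2.45-fold fall (adjusted p = 0.0133). Dnajb9, an ER co-chaperone, was at 11.08, 10.88 and 10.64 against 10.29, 10.43 and 10.21 (-0.56, adjusted p = 0.0447). Sdf2l1 lost its call without wild-type ethanol array 2 or null ethanol array 1 (0.000142 to 0.0594). Dnajb9 lost it without wild-type control array 1, wild-type ethanol array 1 or 2, null control array 2 or 3 or any 1 null ethanol array, with no filter, with only the ethanol arrays and after either rescaling (0.0261 to 0.15). The BiP gene Hspa5 was at 10.33, 10.20 and 10.09 against 9.68, 9.83 and 9.82 (-0.43, adjusted p = 0.0789), apart but not called. Hspa1b, a heat shock chaperone with the lowest difference of the list and named after its values were seen, was at 9.84, 9.46 and 9.66 against 8.87, 8.14 and 7.38 (-1.52, adjusted p = 0.0879). The summed intensity of the list was 53324 to 56834 in wild-type and 45857 to 50983 in null ethanol arrays. On the control diet 24 of the 25 had the same sign as on ethanol, and 4 were called lower.

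Other ER genes called lower are named after their values were seen. Emc10, of the complex that inserts membrane proteins, was at 10.02, 9.93 and 10.00 against 9.02, 9.12 and 8.95, a fall of 0.95 with no overlap (adjusted p = 0.00011). Ckap4, an ER sheet protein gene, fell by 0.54 (adjusted p = 0.00686), and Emc10 and Ckap4 kept their calls under 19 and 18 alternatives. Syvn1, the ubiquitin ligase of ER-associated degradation, was at 9.71, 9.74 and 9.59 against 8.84, 8.97 and 8.88 (-0.79, adjusted p = 0.0146). On the control diet its difference was -0.03, and the change between diets did not pass. It lost its ethanol call without wild-type ethanol array 2 or null ethanol array 1 (0.00223 to 0.0759).

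Of 21 known PPAR target genes tested, Fgf21 rose (4.76% called), 13 were below 0 and the median was -0.08. Angptl4, a lipase inhibitor induced by fatty acids through PPARs, was at 10.98, 11.12 and 10.93 against 11.28, 11.39 and 10.68 (0.11, adjusted p = 0.858), with overlapping groups. Pdk4, which blocks glucose oxidation, was at 8.74, 8.64 and 8.34 against 7.71, 8.08 and 7.42 (-0.84, adjusted p = 0.194), apart but not called. The lipid droplet coat gene Plin2 was at 12.08, 12.21 and 12.01 against 12.04, 12.07 and 11.33 (adjusted p = 0.473), and the omega-hydroxylase gene Cyp4a14 at 13.60, 13.47 and 13.54 against 13.62, 13.56 and 12.94 (adjusted p = 0.639). In these genes null ethanol array 3 was the lowest array, and the groups overlapped in Angptl4, Plin2 and Cyp4a14. Cyp4a10 had no probe set of its own. Of 22 genes of fatty acid oxidation and ketone production, 0 were called (limma, 0 at an unadjusted p under 0.05), with differences from -0.37 to 0.11.

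Fgf21, a fasting and stress hormone of liver, was at 7.02, 7.79 and 7.38 in wild-type and 9.0, 8.46 and 8.12 in null liver, 2.19-fold higher (adjusted p = 0.0485). Asns, asparagine synthetase and a target of ATF4, was at 6.55, 7.40 and 7.60 against 7.89, 8.67 and 8.12, 2.06-fold higher (adjusted p = 0.0469). Neither set of arrays overlapped, but both calls sat close to the threshold. The Fgf21 call was lost without any 1 wild-type array, null control array 2 or null ethanol array 1 or 2, with no filter, with only the ethanol arrays and with a trend and robust fit (0.022 to 0.155). The Asns call was lost without any 1 array other than wild-type ethanol array 3 and under the same 3 settings (0.0309 to 0.139). Of 19 tested ATF4 stress genes, these 2 rose and Cth fell (15.8% called), while Trib3 (0.26), Chac1 (0.32) and Ddit3 (-0.30) did not pass, and the median was 0.08.

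Of 22 lipogenesis genes, 0 were called (limma, 9 at an unadjusted p under 0.05), with 15 above 0. Pklr, liver pyruvate kinase, was at 10.22, 10.43 and 9.95 against 10.59, 10.94 and 11.42 (0.79, adjusted p = 0.0548), and Srebf1, the master factor of lipogenesis, at 8.49, 8.31 and 8.38 against 9.08, 8.85 and 10.04 (0.93, adjusted p = 0.0989). Null array 3 was the highest in both. Lpin1, a phosphatidate phosphatase with the highest difference of the list and named after its values were seen, was at 10.68, 9.20 and 10.03 against 12.31, 12.38 and 10.15, and here null array 3 lay within the wild-type range (1.64, adjusted p = 0.306). Of 19 cholesterol genes, 0 were called (10 at an unadjusted p under 0.05), 16 were above 0 and the median was 0.28 (0.36 after median centring). Without null control array 3, 2 of them were called higher, and without null ethanol array 1, 1 lipogenesis gene was. Nsdhl, a sterol demethylation enzyme gene, was at 8.59, 8.59 and 8.42 against 9.06, 9.58 and 9.79 (0.94, adjusted p = 0.126), with no overlap.

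Lpl, lipoprotein lipase, was the called member of 19 lipid droplet and fat uptake genes (5.26%), at 8.63, 9.02 and 9.30 against 7.68, 8.11 and 7.94, a 2.11-fold fall (adjusted p = 0.0282). On the control diet its difference was -0.11, and the change between diets did not pass (interaction -0.97, adjusted p = 0.224). Its call was lost without wild-type ethanol array 2 or 3 or any 1 null ethanol array and with no filter (0.0123 to 0.133), and a second, dimmer probe set gave -0.48. Elovl3, which elongates very long chain fatty acids, was at 12.82, 12.93 and 12.53 against 11.29, 11.84 and 10.68, a 2.80-fold fall (adjusted p = 0.02). It lost its call without any 1 wild-type ethanol array or null ethanol array 1 or 3 and with a trend and robust fit (0.00879 to 0.0973).

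Of 15 genes of ethanol oxidation tested, 0 were called (limma, 0 at an unadjusted p under 0.05), and the differences ran from -0.17 to 0.20. Cyp2e1, the ethanol-inducible P450, was at 13.92, 13.89 and 13.94 against 13.95, 13.92 and 14.03, a difference of 0.05 with a 95% interval from -0.11 to 0.21. Adh1, alcohol dehydrogenase, was at 13.22, 13.21 and 13.22 against 13.24, 13.23 and 13.27. Both differences were small beside the calls named here, although the Adh1 groups did not overlap. Cyp2b10, the usual CAR target, was at 7.52, 6.51 and 6.72 against 6.63, 8.28 and 6.56, with its highest value in null array 2 and overlapping groups (0.24, adjusted p = 0.835). Of 17 CAR and PXR targets, Cyp2b9 was the called member (5.88%).

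Sex-biased liver genes follow growth hormone pulses. Of 20 male-biased genes tested, 17 were below 0 with a median of -0.31, and Cyp4a12b, Elovl3 and Mup21 fell while Cyp4a12a rose (20% called). Cyp4a12b, a fatty acid hydroxylase, was at 10.85, 11.09 and 10.98 against 8.03, 9.57 and 8.06 (5.36-fold lower, adjusted p = 0.00162). Its near-identical neighbour Cyp4a12a was at 8.22, 8.62 and 8.13 against 9.38, 9.49 and 9.08 (1.99-fold higher, adjusted p = 0.0136). Probes of these 2 genes may share targets, so the opposite directions are uncertain. The Cyp4a12a call was lost without wild-type ethanol array 3 or null ethanol array 1 or 2 (0.0028 to 0.0784). Mup21, of the major urinary protein family, was at 7.23, 7.11 and 6.60 against 5.29, 5.78 and 5.96 (-1.30, adjusted p = 0.00745), and it too has close relatives. Hsd3b5, a male steroid dehydrogenase gene, was at 9.67, 10.92 and 9.98 against 7.10, 9.18 and 9.38 and did not pass (-1.64, adjusted p = 0.114). Of 15 female-biased genes tested, Cyp2b9 fell (6.67% called) and 7 were above 0, and without wild-type control array 3 a further member was called higher.

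Of 22 clock genes and outputs, Usp2 and Rgs16 rose (9.09% called, against 0.456% of all genes), 16 were above 0 and the median was 0.31. Usp2, a ubiquitin protease with a daily rhythm, was at 8.97, 8.17 and 8.62 against 10.44, 10.23 and 10.24, a 3.29-fold rise (adjusted p = 0.0167). Dbp, a clock-driven factor gene, was at 8.81, 9.17 and 9.75 against 10.15, 10.16 and 10.51 (1.03, adjusted p = 0.377). Arntl, the core activator BMAL1, lay the other way at 8.38, 8.40 and 7.96 against 6.55, 7.12 and 6.80 (-1.42, adjusted p = 0.0927), and neither of these passed despite separate groups. The labels give no hour of killing for either group. Usp2 lost its call without wild-type ethanol array 2 or 3 or null ethanol array 1 and with a trend and robust fit (0.000357 to 0.0932). Without null control array 1 or 3, 4 members were called higher and 1 lower, and without wild-type ethanol array 2 or 3 or null ethanol array 1, 1 was called higher. Without wild-type control array 3 or null ethanol array 2, 2 were called higher and 1 lower.

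In iron handling, Hfe and Tfrc fell among 24 genes tested (8.33% called). Hfe, which sets hepcidin output, was at 8.99, 9.06 and 9.33 against 8.37, 8.04 and 8.20 (1.89-fold lower, adjusted p = 0.000646), and it kept its call under 19 alternatives. Tfrc, the transferrin receptor that Hfe binds, was at 7.47, 7.70 and 7.54 against 7.07, 6.70 and 6.41 (-0.84, adjusted p = 0.0238). The Tfrc call was lost without wild-type ethanol array 2 or 3 or null ethanol array 2 or 3 (0.0107 to 0.109). Of 25 conjugation enzymes, Tpmt, which methylates thiopurines, rose (4% called), at 10.03, 10.01 and 10.02 against 11.01, 11.09 and 10.52 (1.81-fold, adjusted p = 0.00465).

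Of 21 cell cycle genes, Pttg1 and Mcm6 fell and Rrm2 rose (14.3% called), so the members did not move one way. Rrm2, a ribonucleotide reductase subunit, was at 6.13, 6.06 and 5.93 against 6.73, 7.08 and 6.49 (0.73, adjusted p = 0.0244), and Mcm6, a replication helicase subunit, at 6.19, 6.04 and 6.02 against 5.54, 5.66 and 5.49 (-0.52, adjusted p = 0.0222). A second Rrm2 probe set, near background, gave 0.11. Rrm2 lost its call without wild-type ethanol array 2 or 3 or null ethanol array 1 or 2 and with only the ethanol arrays (0.0101 to 0.119). Mcm6 lost it without any 1 wild-type ethanol array or null ethanol array 1 or 3 and after median centring (0.0081 to 0.0781). Top2a and Birc5, markers of dividing cells, were below the filter. Among 24 macroglobulins and serpins, Serpina1e fell beside Mug2 (-0.58, adjusted p = 0.0373), and lost its call without any 1 wild-type ethanol array, null control array 2 or null ethanol array 1 or 3, with no filter, with only the ethanol arrays and after either rescaling (0.0184 to 0.147). Among 10 membrane peptidases, Dpep1 rose (0.84, adjusted p = 0.0296) while Mme fell, and the Dpep1 call was lost without any 1 wild-type ethanol array or null ethanol array 1 or 2 and with no filter (0.00237 to 0.14).

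In 20 of the 45 lists no member was called with all arrays. Beside those given, these were the NRF2 antioxidant genes (20 tested, 1 at an unadjusted p under 0.05), oxidative phosphorylation subunits (31 and 2), bile acid genes (26 and 3), immediate early genes (22 and 2), glucose and insulin genes (21 and 7) and nuclear receptors (33 and 4). Markers of other tissues and cells were few above the filter: cholangiocytes (5 and 1), adipocytes (5 and 0), exocrine pancreas (3 and 1) and red blood cells (1 and 0). The methionine and NAD list held 27 tested genes, of which Nnmt was called (3.7%). In the glucose list, Igf1, the growth factor released under growth hormone, was at 11.47, 11.80 and 11.79 against 11.29, 11.07 and 11.04 (-0.55, adjusted p = 0.0608), with no overlap. Igfals, which carries IGF1 in plasma and is named after its values were seen, was called lower (-0.67, adjusted p = 0.0245). It lost its call without wild-type ethanol array 2 or 3 or any 1 null ethanol array, with no filter and with only the ethanol arrays (0.0179 to 0.0979). Hmox1, heme oxygenase, was at 8.03, 8.24 and 8.22 against 7.77, 7.99 and 7.60 (-0.37, adjusted p = 0.236), and the groups did not overlap. Leaving out single arrays added calls in some lists. Without wild-type control array 3 a bile acid gene and a fat uptake gene were called higher and a conjugation enzyme lower, and without wild-type control array 1 a conjugation enzyme was also called lower. The cytokine list had 2 genes called lower without wild-type control array 1 or 3, null control array 1 or 3 or null ethanol array 3, and 1 gene called higher without wild-type control array 2. The glucose list had 1 called lower without wild-type ethanol array 1 or null control array 1 or 3, and 1 called higher without null control array 1 or null ethanol array 3.

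**Figure D5:**
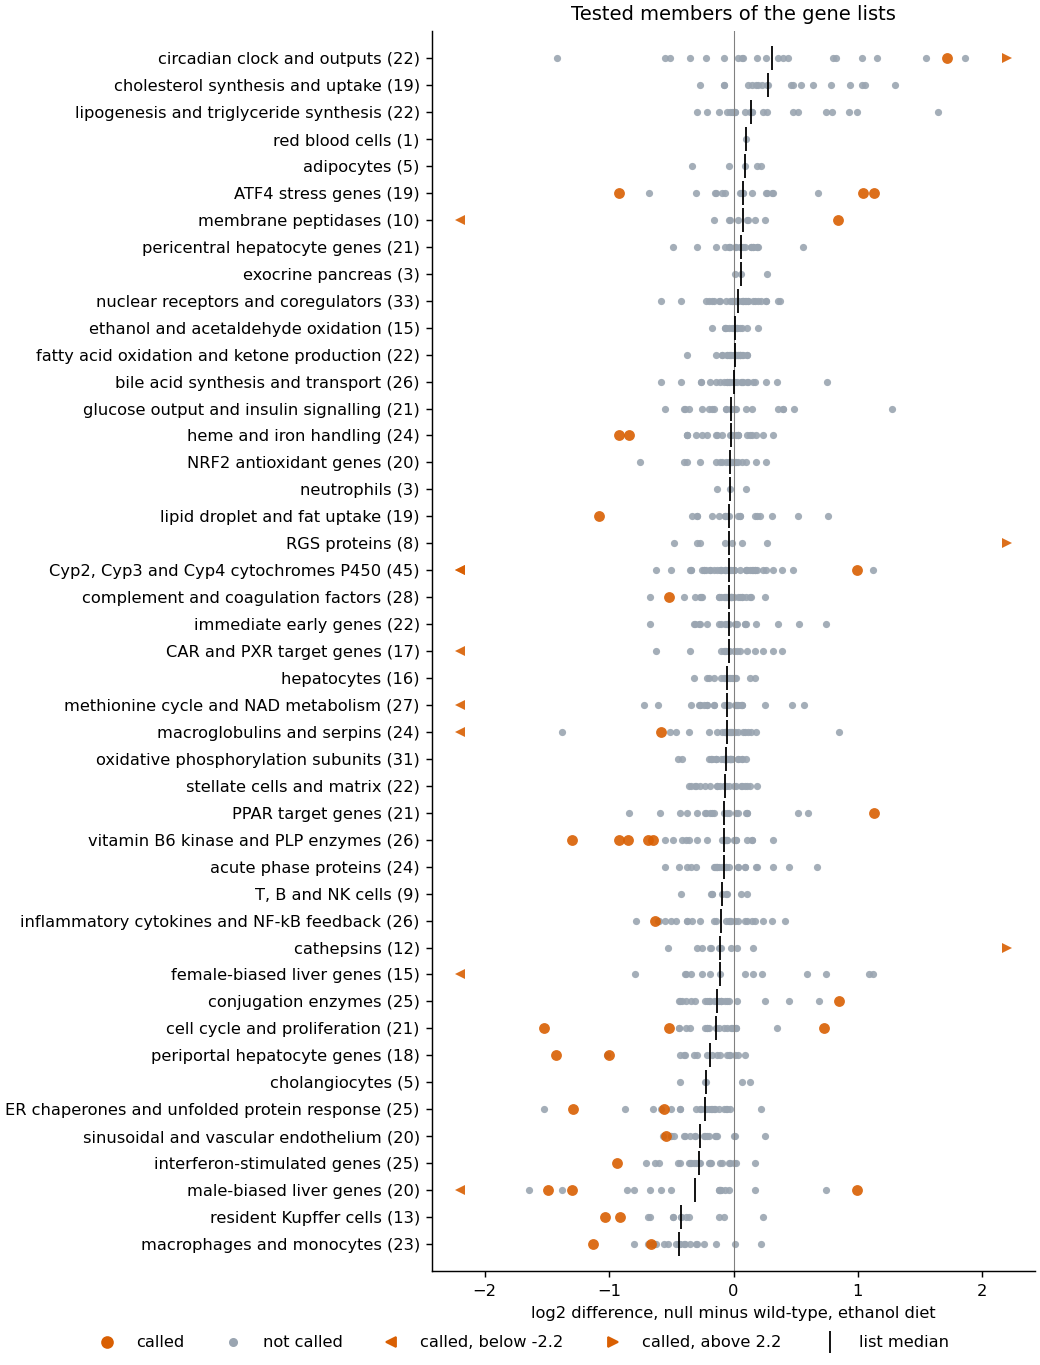
Log2 difference, null minus wild-type on ethanol (x axis), of every tested member of the 45 gene lists, with the number tested in brackets; orange points were called, grey were not, triangles lie beyond 2.2 in size and black bars are list medians. Medians run from -0.44 (macrophages) to 0.31 (clock), and 20 lists hold no orange point.

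Genes with a large difference on ethanol and little on the control diet were sought by the interaction. Slco2a1, a prostaglandin transporter gene, was at 10.70, 10.76 and 10.57 against 9.50, 9.10 and 9.28 on ethanol (2.62-fold lower, adjusted p = 0.00148), and its control difference was -0.28. The interaction of -1.11 had an adjusted p of 0.176. For Agxt the control difference was 0.04 and the interaction -0.89 (adjusted p = 0.17). For Mme, lower on both diets, the interaction was -1.23 (adjusted p = 0.176), and for Adgrf1 it was -1.52 (adjusted p = 0.206). Hspb1, a small heat shock protein gene, was at 8.00, 8.42 and 8.23 against 7.37, 6.96 and 6.99 on ethanol (-1.11, adjusted p = 0.0373), with a control difference of -0.19. A second, dimmer Hspb1 probe set gave -0.09 on ethanol. Its ethanol call was lost without any 1 ethanol array or null control array 2, with no filter, after either rescaling and with a trend and robust fit (0.00648 to 0.16). None of these interactions passed, so a diet-specific genotype difference was not shown for any of them.

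The genes with the smallest interaction p other than small RNAs included Tet2, a DNA demethylase gene, and Tob1, an antiproliferative gene, whose differences were above 0 on the control diet (0.64, adjusted p = 0.0108, and 0.41, adjusted p = 0.0539) and below 0 on ethanol (-0.32, adjusted p = 0.211, and -0.48). Tob1 was called on ethanol (adjusted p = 0.0485) and lost its call without wild-type control array 1 or 3, any 1 ethanol array or null control array 2, with no filter, with only the ethanol arrays and after either rescaling (0.0309 to 0.166). Zfp707 was called too (-0.54, adjusted p = 0.0222), and lost its call without wild-type ethanol array 2 or 3 or null ethanol array 1 or 2 and after median centring (0.0157 to 0.113). The interactions of Tet2, Tob1, Zfp707, Rogdi, Tmem9, Alkbh7, Ddx39a, Kdm4b and Mcc ran from -0.96 to -0.63 with an adjusted p of 0.17. The interaction's median over all genes was -0.04, and 0.09 after median centring.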

How the data were processed

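Mouse liver RNA was hybridised to 12 Mouse Gene 2.0 ST arrays (Affymetrix), 3 for each of 4 groups. The authors deposited linear intensity values per probe set (1.82 to 20156), normalized by RMA per the submitters' processing notes; no batch is given in the labels. Here log2 was taken. Of 41345 probe sets, 23521 named exactly 1 gene and 1814 several; each of 22180 genes kept the probe set with the highest mean over the 12 arrays. Genes above an array's 40th percentile on at least 3 arrays were tested (14031). One mean per group was fitted over all 12 arrays with limma 3.58.1 in R 4.3.3 (lmFit, contrasts.fit, eBayes; 8 residual and 4.95 prior degrees of freedom), with Benjamini-Hochberg adjustment over all tested genes, two-sided. The script was tested on simulated data. With 3 arrays a group, the median standard error of a log2 difference was 0.116.

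Genes named are the 15 largest rises and falls, up to 4 called members of each list with the smallest p (or 2 uncalled), the 10 called genes with the largest interaction, the 10 smallest interaction p-values and PPAR or ethanol genes in any case; predicted genes and small RNAs were counted only. Others are said to be named after their values were seen. The comparison, lists and rules were chosen with earlier results of these data known. The 45 lists held 873 tested entries. The alternatives were no filter, a stricter filter (60th percentile), only the ethanol arrays, a replicate block, quantile normalization, median centring, a trend and robust fit, the mean of probe sets, a minimum log2 difference of 1 and leaving out each array. Promoters came from RefSeq tables.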

Additional observations from a re-analysis of the deposited data

Results flagged for a closer look

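The change in the genotype difference between diets was called for 2 genes by limma, both small nucleolar RNAs, and both are named after their values were seen. For Snord53 the difference was 4.97 on the control diet and 3.17 on ethanol, an interaction of -1.80 (adjusted p = 0.0484). On ethanol it was at 8.46, 8.65 and 8.37 in wild-type and 11.87, 11.90 and 11.22 in null arrays, with no overlap. For Snord111 the difference was 1.23 on the control diet and -0.32 on ethanol, an interaction of -1.55 (adjusted p = 0.0484). Small nucleolar RNAs as a class differed between arrays: the median of 66 was 7.30, 7.78 and 7.24 in wild-type control, 8.61, 8.71 and 8.75 in null control, 8.51, 8.65 and 8.37 in wild-type ethanol and 9.05, 8.53 and 8.31 in null ethanol arrays. The part of that shift in these interactions was not tested.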

How the results depend on the processing

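Named genes called on ethanol kept their direction under the alternatives run. Of the uncalled PPAR and ethanol genes recomputed, Angptl4 (0.11) was at -0.03 and Cyp2b10 (0.24) at -0.32 without null ethanol array 2, and Cyp4a14 (-0.16) at 0.05 without null ethanol array 3. With a minimum 2-fold difference, 71 genes were called on ethanol (21 higher, 50 lower) and 136 on the control diet. With no filter, 119 were called lower on ethanol, 393 on the control diet and 1 for the interaction. Median centring gave 107 higher, 122 lower and 0 for the interaction, and the stricter filter 0 for the interaction (limma, 2110 at an unadjusted p under 0.05 with all arrays and the main filter). Leaving out 1 array gave 108 to 319 calls on ethanol, 30 to 91 higher and 74 to 228 lower, 192 to 1304 on the control diet and 0 to 84 for the interaction, 84 being without wild-type control array 2. Over all tested genes, the same-numbered arrays of the ethanol groups did not deviate together (r = -0.0554, -0.0272 and 0.00837). This cannot exclude a pairing that touches few genes, and the labels give the numbers no meaning. A fit with the replicate block called 229 genes, or 261 with only the ethanol arrays. The block ended the calls of 7 and 10 named genes in these fits. Signal limits the dim genes: null values of Cyp2b9, Zfp982, Nnmt, Lncbate1, Slc15a5, Aoah and Cd180 and wild-type values of Prelid2 lay below the filter percentile. So did some null values of Adgrf1, Mup21 and Mcm6, and other dim genes may be limited in the same way.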

Other observations

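Called genes lay on each autosome and on the X chromosome, in unequal shares. Whether they clustered within a chromosome was not tested. On chromosome 6, 25 of 700 tested genes were called (3.57%), on chromosome 17, which carries Ppard, 20 of 711 (2.81%), on chromosome 2, 7 of 1098 (0.638%) and on the X chromosome 2 of 390 (0.513%), against 1.79% over all genes.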
